A study of Homo sapiens with 6 samples.

Results

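DNMT1, UHRF1, DNMT3A, DNMT3B, TET1, TET2, TET3, EZH1 and EZH2 encode enzymes that write or oxidise DNA methylation, a factor that guides the maintenance enzyme, and the alternative catalytic subunits of Polycomb repressive complex 2. The 9 genes were taken by symbol as a group, with earlier results of these data known, out of 63677 gene IDs in the deposited table, and each symbol had 1 gene ID. The study sequenced total RNA of KMS27, an established human myeloma cell line, in 3 libraries of cells labelled wild type and 3 of cells labelled HA-TAZ, in which TAZ with an HA peptide tag was overexpressed. The product of WWTR1, TAZ is a Hippo pathway coactivator that reaches DNA through TEAD factors. Neither the promoter that drives HA-TAZ nor whether the line is a clone or a pool is given in the sources used here. The other 3 columns of the table have a name found in no label and were assigned to wild type by elimination; they are referred to by the letters a to c, as controls. Wild type titles also contain HA, and whether these cells received a construct is not stated. The protocol describes libraries made in triplicate, and nothing says that they came from separate cultures, so p-values measure only the spread between these libraries, which may be technical.

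Cytosines followed by guanine are methylated in human DNA, and DNMT1 copies this mark onto the new strand after replication. UHRF1 recognises hemimethylated sites and recruits DNMT1 to them, while DNMT3A and DNMT3B place methylation at sites that had none. TET1, TET2 and TET3 oxidise methylcytosine, which opens a path to its removal. EZH1 and EZH2 are alternative subunits that methylate histone H3 at K27, a repressive mark; EZH2 is the form of dividing cells and is abundant in many myelomas, and EZH1 is also made in resting cells.

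Levels are given in TPM, a length-corrected share of the transcripts in a library, summed over all annotated transcripts of a gene. Every library sums to 1000000 TPM, so its own depth is unknown; estimated counts behind the means of the authors' deposited table add up to 52795484 per library. WWTR1 was at 293, 306 and 293 TPM in HA-TAZ 1, 2 and 3 and at 2.69, 2.22 and 1.69 TPM in controls a, b and c. Of the plasma cell markers, SDC1, TNFRSF17, IRF4, PRDM1 and XBP1 lay between 41.0 and 269.5 TPM in all 6 libraries, and the B cell, T cell and monocyte markers MS4A1, PAX5, CD3E and CD14 did not exceed 0.496 TPM.

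Sequences before the start sites of 3 of the genes are shown because the results below turn on transcripts from these starts. They are from RefSeq on GRCh38.p14, each is the 100 bases before an annotated start, read 5′ to 3′ on the strand of the gene, and capitals mark CpG, the target of the enzymes themselves.
TET1, chr10:68560237-68560336, plus strand: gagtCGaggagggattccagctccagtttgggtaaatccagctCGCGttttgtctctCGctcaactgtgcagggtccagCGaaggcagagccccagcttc
TET3, chr2:73984810-73984909, plus strand: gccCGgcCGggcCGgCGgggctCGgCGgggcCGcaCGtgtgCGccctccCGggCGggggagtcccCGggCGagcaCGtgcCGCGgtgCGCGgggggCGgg
DNMT3A, long isoform, chr2:25341926-25342025, minus strand: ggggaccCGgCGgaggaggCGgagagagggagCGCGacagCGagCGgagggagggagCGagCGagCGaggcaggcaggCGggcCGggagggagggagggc
DNMT3A, short isoform, chr2:25252316-25252415, minus strand: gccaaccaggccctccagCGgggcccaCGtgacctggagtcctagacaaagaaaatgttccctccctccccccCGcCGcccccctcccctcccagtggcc
In the 250 bases before these starts there were 9 CpG for TET1, 37 for TET3, and 33 and 25 for the long and short forms of DNMT3A. Over all 35116 RefSeq start windows the median was 11, with quartiles of 3 and 23. The TET1 start thus had fewer CpG than the median window and the other 3 had more than the upper quartile. Of the 21 windows of the 9 genes, 17 were at or above the median; the only DNMT3B window, counted here and among the motifs below, lies 17467 bases from the start of the DNMT3B transcript measured. The RefSeq starts lay 319 bases from the annotated 5′ end of the TET1 transcript, 1494 from that of TET3, and 40 and 4 from those of the DNMT3A transcripts.

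Letters read by TEAD and E2F factors were looked for in the same windows, 250 bases before to 50 after a start and on both strands, because TAZ acts through TEAD and because E2F factors are the known activators of EZH2, UHRF1 and other replication genes. The letters GGAATG of the TEAD site were in 14.0% of all windows and in 1 of the 21 windows of these genes. The E2F letters TTTGGCGC, TTTCCCGC, TTTGGCGG or TTTCCCGG were in 4.31% of all windows and in 3 of the 21. The matches, in capitals within 30 bases of GRCh38.p14 on the strand of the gene, were these.
TET1, chr10:68600059-68600088, plus strand: gtggttcctgaGGAATGagacacgcagccc
EZH2, chr7:148884272-148884301, minus strand: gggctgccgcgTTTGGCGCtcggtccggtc
UHRF1, chr19:4909476-4909505, plus strand: gccgagttttcGCGGGAAAaaaatcagagc
EZH1, chr17:42745141-42745170, minus strand: gagtgcggggtTTTGGCGGcaaatgacagt
In UHRF1 the match is the reverse complement of TTTCCCGC. The TET1 match belongs to a RefSeq start other than that of the TET1 transcript measured here. A match of letters is a description and not a site.

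The 9 genes kept much the same order of level in all libraries. DNMT1 was the highest, at 103.6 to 195.8 TPM, followed by EZH2 at 42.1 to 62.4 TPM, EZH1 at 26.6 to 46.7 TPM and UHRF1 at 15.5 to 20.9 TPM. TET3, DNMT3A and TET2 came next and their ranges overlapped, since they lay at 10.6 to 12.4, 10.7 to 12.4 and 7.72 to 12.5 TPM. DNMT3B at 3.58 to 6.44 TPM and TET1 at 2.84 to 5.91 TPM were the lowest. DNMT3B was above TET1 in each library although their ranges overlapped across libraries. TET2 was in place 7 in all HA-TAZ libraries and in place 5, 5 and 6 in the controls. This order is that of sums over all annotated transcripts. Protein-coding transcripts of EZH1 alone had means of 11.7 TPM with HA-TAZ and 13.5 in the controls. The UHRF1 sums were higher, at means of 16.3 and 19.7 TPM.

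To compare HA-TAZ with control, TPM values were divided by each library's median-of-ratios factor over 21512 tested genes above 0 in all libraries, and log2(scaled TPM + 1) of the 22651 genes at or above 1 TPM on average was tested with limma. Fold changes below use that log2 scale and therefore understate differences of low genes such as TET1. None of the 9 genes passed: limma called 0 of 9 at a Benjamini-Hochberg adjusted p under 0.05, against 7.29% of all tested genes. At an unadjusted limma p under 0.05 there were 6 of 9, 2 higher and 4 lower with HA-TAZ, against 30.7% of all genes. The count of 0 rests on the choice of factors. Factors over all 33614 genes above 0 were computed first and gave 1 call, DNMT3A with an adjusted limma p of 0.0480. The factors were restricted to tested genes after that result was seen, although the written plan is closer to the first choice. In bulk RNA, fewer cells with a transcript and less of it per cell cannot be told apart.

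The maintenance genes differed little. DNMT1 was at a scaled TPM of 128, 128 and 117 with HA-TAZ and 163, 136 and 126 in the controls, means of 124.5 ± 6.35 and 141.8 ± 19.1 (SD, n = 3). Its groups overlapped and control a stood highest. The log2 fold change was -0.18 (SE 0.10, adjusted p = 0.288, limma). UHRF1 was at 18.0, 18.0 and 18.2 with HA-TAZ and 17.4, 18.2 and 17.5 in the controls, with a log2 fold change of 0.03 (SE 0.05, adjusted p = 0.739, limma). The UHRF1 values had the smallest relative spread of the 9 genes in the HA-TAZ libraries, and its groups overlapped.

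The de novo methyltransferases differed in opposite directions. DNMT3A was at a scaled TPM of 12.8, 11.8 and 12.8 with HA-TAZ and 10.3, 10.3 and 10.2 in the controls, means of 12.4 ± 0.595 and 10.3 ± 0.0751 (SD, n = 3). Each HA-TAZ library was above each control, and the log2 fold change was 0.25 (SE 0.06, adjusted p = 0.0575, limma). DNMT3B was at 4.19, 4.33 and 4.05 with HA-TAZ and 5.36, 5.65 and 5.09 in the controls. Each HA-TAZ library was below each control here, with a log2 fold change of -0.29 (SE 0.08, adjusted p = 0.0705, limma). Neither passed the threshold.

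The TET dioxygenases were not uniform either. TET1 was at a scaled TPM of 3.30, 3.63 and 3.40 with HA-TAZ and 4.92, 4.78 and 4.48 in the controls, a log2 fold change of -0.37 (SE 0.08, adjusted p = 0.0523, limma) and the largest in size of the 9. TET2 was at 8.97, 8.13 and 9.20 against 10.4, 11.2 and 11.2, with a log2 fold change of -0.29 (SE 0.07, adjusted p = 0.0613, limma). The HA-TAZ libraries were the lower ones for both genes, with no overlap. TET3 was at 12.3, 12.9 and 13.2 with HA-TAZ and 10.1, 10.7 and 11.7 in the controls. Its HA-TAZ libraries were the higher ones, also with no overlap, and the log2 fold change was 0.22 (SE 0.07, adjusted p = 0.105, limma).

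The EZH genes both had their HA-TAZ libraries below the controls, by different amounts. EZH1 was at a scaled TPM of 30.9, 32.5 and 32.1 with HA-TAZ and 38.8, 38.1 and 35.5 in the controls, a log2 fold change of -0.23 (SE 0.05, adjusted p = 0.0550, limma). EZH2 was at 48.9, 50.03 and 50.2 against 51.9, 51.6 and 50.4, a log2 fold change of -0.04 (SE 0.04, adjusted p = 0.462, limma). The EZH2 groups were separated narrowly, with HA-TAZ 3 just under control c.

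**Figure D1:**
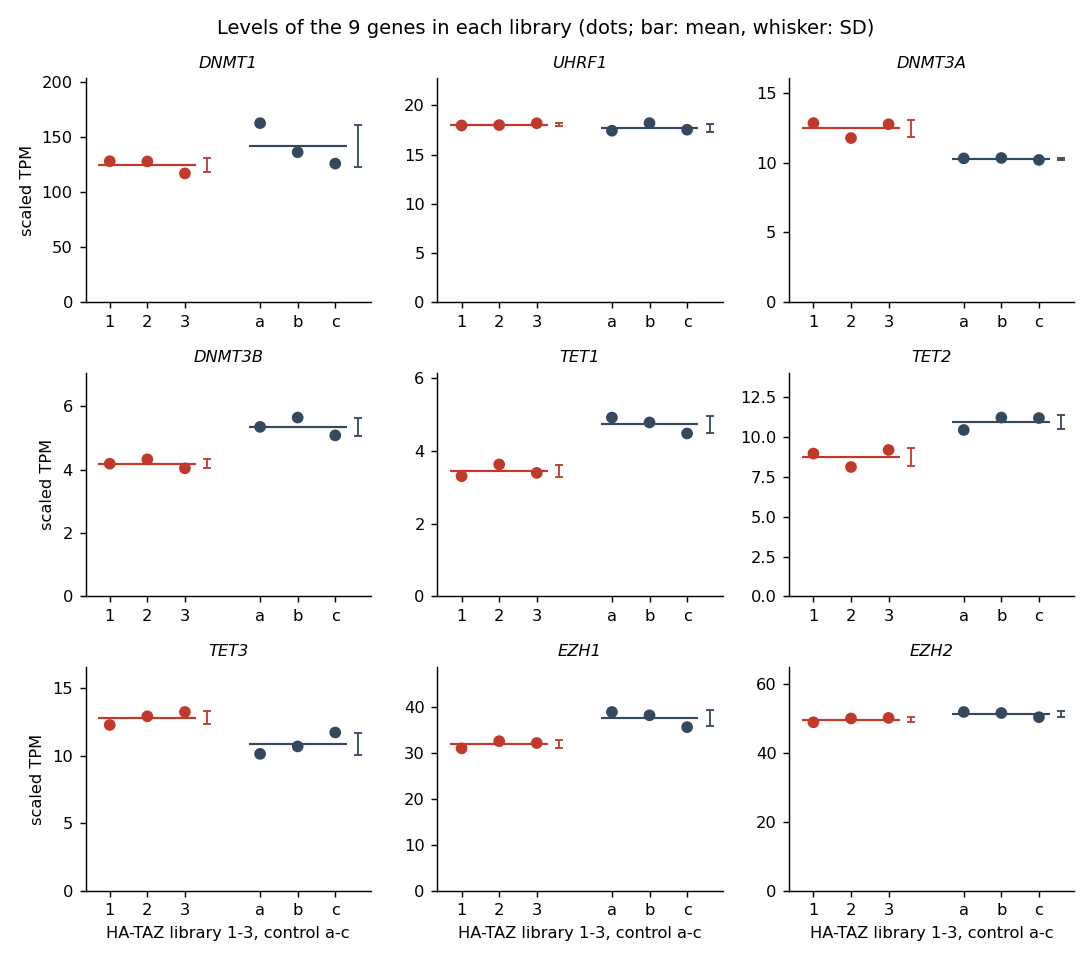
Scaled TPM of the 9 genes (vertical axes, from 0) in HA-TAZ libraries 1 to 3 and controls a to c; points are libraries, lines are group means and whiskers are SD (n = 3). DNMT3A and TET3 sit higher with HA-TAZ, DNMT3B, TET1, TET2, EZH1 and, narrowly, EZH2 sit lower, and DNMT1 and UHRF1 overlap.

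Of the 9 genes, 7 had groups of scaled TPM that did not overlap, 2 higher and 5 lower with HA-TAZ. Over all tested genes this held for 38.5%, 20.2% higher and 18.3% lower. Their own median log2 fold change was -0.18, beside -0.03 over all tested genes.

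The direction of DNMT3A, TET3 and UHRF1 depended on how libraries were scaled, while the other genes stayed below 0 under each scaling run. With TPM as deposited, limma called 5 of 9 genes lower with HA-TAZ, TET1, TET2, DNMT3B, EZH1 and EZH2, against 13.5% of all genes called lower. The median of all tested genes was then at -0.27, and that of the 9 genes at -0.48. The signs of DNMT3A, TET3 and UHRF1 turned, to -0.02, -0.06 and -0.26. Factors over protein-coding genes turned UHRF1 to -0.05 and gave 3 calls, TET1, TET2 and EZH1, all lower with HA-TAZ.

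**Figure D2:**
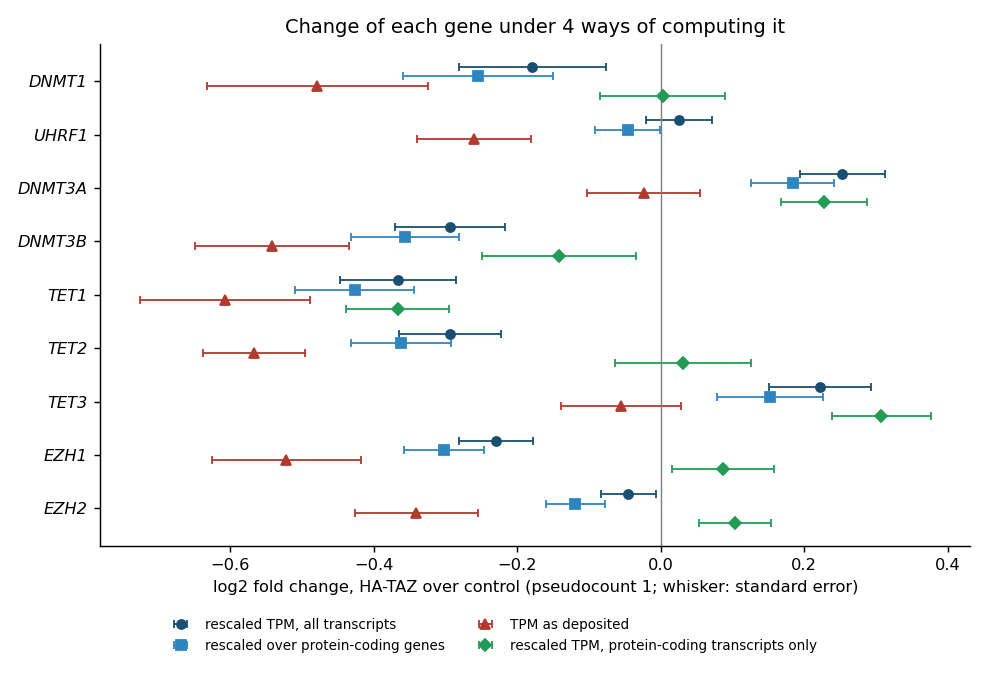
Log2 fold change of each gene (horizontal axis, HA-TAZ over control, pseudocount 1) with its standard error, for TPM scaled by factors over all tested or over protein-coding genes, for TPM as deposited and for protein-coding transcripts only (no value for UHRF1). TET1 and DNMT3B stay below 0 under each, DNMT3A and TET3 are above 0 except with TPM as deposited, and DNMT1, TET2, EZH1 and EZH2 are at or above 0 only for protein-coding transcripts.

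Ratios between the genes within a library do not depend on the scaling between libraries, and 6 were compared. DNMT3A over DNMT3B was 3.06, 2.72 and 3.15 with HA-TAZ and 1.92, 1.83 and 2.00 in the controls, 1.55-fold higher by geometric means. TET2 over TET3 was 0.730, 0.629 and 0.695 with HA-TAZ and 1.03, 1.05 and 0.956 in the controls, a ratio of geometric means of 0.676. Summed over all transcripts, TET2 and TET3 were thus near parity in the controls and TET3 was the higher of the pair in each HA-TAZ library. In coding transcripts alone TET3 had the higher mean in both groups, at 10.8 TPM with HA-TAZ and 10.5 in the controls. Coding TET2, without its transcripts of no given type, was at 4.2 and 5.1 TPM. EZH2 over EZH1 was 1.58, 1.54 and 1.56 with HA-TAZ and 1.34, 1.35 and 1.42 in the controls, a log2 difference of 0.19. UHRF1 over DNMT1 was 0.140, 0.141 and 0.155 against 0.107, 0.134 and 0.139, a log2 difference of 0.21. DNMT1 over the sum of DNMT3A and DNMT3B was 7.53, 7.96 and 6.97 against 10.4, 8.53 and 8.25, a log2 difference of -0.27. The groups of these 5 ratios did not overlap, and each had an exact two-sided permutation p of 0.1 (0.12 adjusted over 6), the smallest that 3 against 3 libraries allow, so none could pass 0.05. The sum of the 3 DNMT genes over the sum of the 3 TET genes was 5.92, 5.84 and 5.19 against 7.002, 5.70 and 5.16, and its groups overlapped (log2 difference -0.07, exact permutation p = 0.9, adjusted 0.9). That value changed sign to 0.06 without control a. Without control a the log2 difference of UHRF1 over DNMT1 was 0.09 and that of DNMT1 over DNMT3A and DNMT3B was -0.17.

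**Figure D3:**
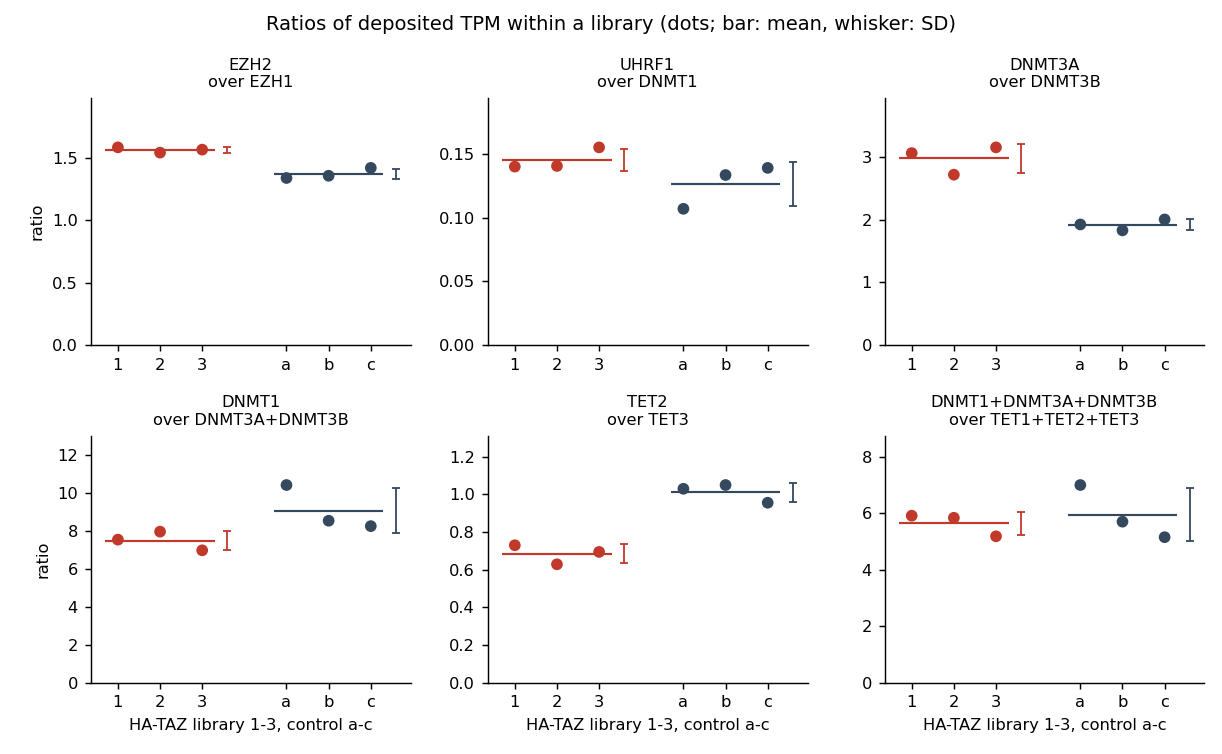
The 6 ratios of deposited TPM within each library (vertical axes, from 0) in HA-TAZ libraries 1 to 3 and controls a to c; points are libraries, lines are group means and whiskers are SD (n = 3). DNMT3A over DNMT3B lies at 2.72 to 3.15 with HA-TAZ and 1.83 to 2.00 in the controls, and DNMT over TET sums overlap.

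The transcripts behind these sums were unequal. The 9 genes had 113 transcripts in the table, 29 of them of DNMT1, 25 of EZH1 and 1 of TET1, and 52 had a mean TPM of at least 1. In the same limma test over transcripts, 0 of 52 passed, beside 0.534% of all tested transcripts. At an unadjusted limma p under 0.05 there were 11, 3 higher and 8 lower. The share of all tested transcripts at that threshold is not given here, so nothing is read from this count. The lowest adjusted p, 0.0956, was that of TET1. The authors' deposited table, a test of their own on each transcript, had statistics for 96 of the 113 and gave 2 of them a q-value under 0.05, beside 5.68% of all transcripts. In the authors' deposited table these were the TET1 transcript ENST00000373644.4, at 0.743 of control (effect -0.297 in natural log, SE 0.0624, q = 0.000182), and the main TET3 transcript ENST00000409262.3, at 1.24 times control (effect 0.212, SE 0.0526, q = 0.00278). The TET1 transcript was at 2.84, 3.49 and 3.00 TPM as deposited with HA-TAZ and 5.91, 5.18 and 4.71 in the controls. The TET3 transcript was at 6.72, 7.92 and 7.15 TPM as deposited with HA-TAZ and 8.10, 7.15 and 6.92 in the controls, where the groups overlap. After scaling its HA-TAZ libraries were all higher, with a log2 fold change of 0.24 (SE 0.07, adjusted p = 0.132, limma).

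DNMT3A was carried mainly by transcripts from 2 starts whose sequences are shown above. The long form ENST00000321117.5 was at 3.31, 3.79 and 3.00 TPM as deposited with HA-TAZ and 4.42, 4.02 and 4.22 in the controls, and its log2 fold change after scaling was -0.02 (SE 0.09, adjusted p = 0.899, limma). The short form ENST00000380746.4, from the start of the isoform known as DNMT3A2, was at 2.39, 2.21 and 2.95 against 2.81, 2.10 and 1.297 TPM, with a log2 fold change of 0.43 (SE 0.19, adjusted p = 0.220, limma). The short form overlapped between groups and control c was its lowest library. The most abundant DNMT3B transcript, ENST00000328111.2, was at 1.02, 0.984 and 0.739 TPM with HA-TAZ and 2.04, 1.38 and 1.99 in the controls, without overlap (log2 fold change after scaling -0.38, SE 0.14, adjusted p = 0.185, limma).

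The transcript of DNMT1 with the highest TPM was not its coding form. ENST00000586799.1, annotated as a target of nonsense-mediated decay and 672 bases long, was at 26.6, 30.8 and 18.7 TPM with HA-TAZ and 67.5, 44.2 and 32.3 in the controls, 27.1% of the gene's TPM. After scaling its groups overlapped, with a log2 fold change of -0.57 (SE 0.25, adjusted p = 0.235, limma). TPM corrects for length, and by reads the order was the reverse. The authors' estimated counts were 1052 for this transcript and 6507 for the coding ENST00000359526.4. The coding transcript ENST00000359526.4 was at 18.0, 18.8 and 17.1 TPM against 20.2, 22.2 and 20.7, with a log2 fold change after scaling of 0.07 (SE 0.10, adjusted p = 0.684, limma). The spread of DNMT1 between controls thus lay more in the short transcript than in the coding form. In EZH2 the most abundant transcript was the coding ENST00000460911.1. Its mean TPM as deposited was 14.3 ± 0.934 with HA-TAZ and 14.9 ± 2.27 in the controls (SD, n = 3). Scaled, its groups overlapped with a log2 fold change of 0.24 (SE 0.11, adjusted p = 0.258, limma), beside -0.04 for the EZH2 sum. In EZH1 the most abundant transcript was ENST00000586714.1, annotated as a retained intron. Its TPM as deposited was 5.44 ± 0.271 with HA-TAZ and 8.75 ± 1.98 in the controls (SD, n = 3). After scaling the groups of this transcript overlapped (log2 fold change -0.32, SE 0.15, adjusted p = 0.262, limma). It is 594 bases long and had 178 estimated counts, against 1942 for the coding ENST00000428826.2. In TET2 the transcripts ENST00000394764.1, of no given type, and ENST00000380013.4, coding, held 28.9% and 28.8% of the TPM.

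Total RNA also holds unspliced and non-coding transcripts, and their share moved with the groups. By GENCODE 29 types, matched by transcript ID for 96 of the 113, 16 of 18 tested retained-intron transcripts of these genes had a log2 fold change below 0, and 9 of 21 coding ones did. Most of the 18 retained-intron transcripts were of DNMT1 or EZH1, and transcripts of 1 gene are not independent. Over all tested transcripts 64.5% of the retained-intron and 36.5% of the coding ones were below 0, with medians of -0.10 and 0.10. Of typed TPM, the percent outside coding transcripts could be given for 6 of the genes. As a share of TPM and not of reads, it gives weight to short transcripts with few reads. In EZH1 it was 61.1, 60.3 and 55.5% with HA-TAZ and 68.8, 67.2 and 65.8% in the controls. In EZH2 it was 27.9, 29.2 and 31.9% against 36.5, 34.2 and 36.02%. In TET3 it was 4.802, 7.90 and 7.11% against 13.6, 11.2 and 13.0%. In TET2 it was 21.3, 18.7 and 35.0% against 36.2, 40.2 and 45.5%, with HA-TAZ 3 apart from the other HA-TAZ libraries. These 4 genes were lower with HA-TAZ without overlap, beside 29.2% of the 7287 genes with both kinds of transcript. DNMT1, at means of 56.9 and 62.2%, and DNMT3A, at 33.8 and 33.0%, overlapped. The percent was lower in the mean in 5 of the 6, beside 77.7% of all such genes, with a median difference over all of -2.997 percentage points.

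**Figure D4:**
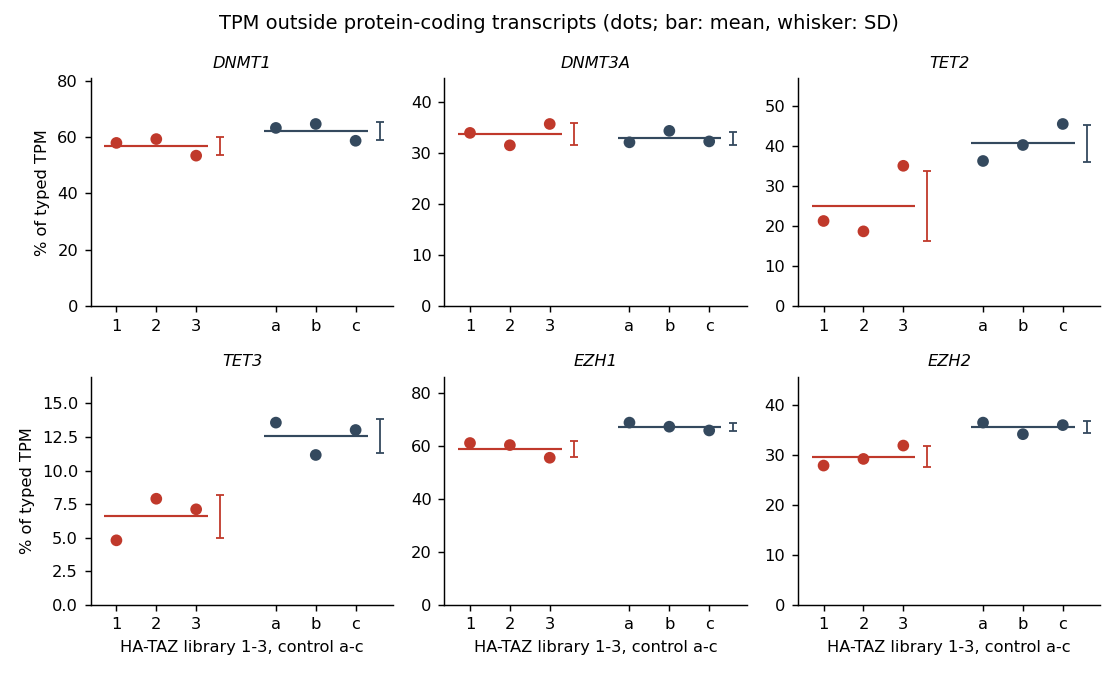
Percent of typed TPM outside protein-coding transcripts (vertical axes, from 0) for the 6 genes with both kinds, in HA-TAZ libraries 1 to 3 and controls a to c; points are libraries, lines are group means and whiskers are SD (n = 3). EZH1, EZH2, TET2 and TET3 are lower with HA-TAZ in each library, and DNMT1 and DNMT3A overlap.

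When only coding transcripts were summed, limma called 3 of the 8 genes that could be tested: TET1 at -0.37 (adjusted p = 0.0103), TET3 at 0.31 (adjusted p = 0.0155) and DNMT3A at 0.23 (adjusted p = 0.0250). All genes were called in 32.7% of cases in that fit, 87.4% of them higher, and the median of all genes was 0.13. DNMT1 at 0.003, TET2 at 0.03, EZH1 at 0.09 and EZH2 at 0.10 changed sign, and all 4 lay below that median. These sums leave out transcripts of no given type as well as non-coding ones. For TET2 this removed ENST00000394764.1, with 28.9% of the gene's TPM and a log2 fold change after scaling of -0.30. For DNMT3B it removed ENST00000344505.4, with 20.3%. With coding transcripts only, the ratio of EZH2 to EZH1 had a log2 difference of 0.01 with overlap, that of TET2 to TET3 was -0.30 with overlap, that of DNMT1 to DNMT3A and DNMT3B was -0.11 with overlap, and that of DNMT3A to DNMT3B was 0.44 without overlap. With only the most abundant transcript of each gene, EZH2 to EZH1 moved from 0.19 to 0.61, UHRF1 to DNMT1 (0.54) and DNMT1 to DNMT3A and DNMT3B (-0.39) overlapped, and the DNMT to TET sums were at -0.47 with overlap. For DNMT1 and EZH1 that transcript was the short non-coding one described above. What part non-coding transcripts, or those of no given type, have in the values summed over all transcripts was not tested beyond this.

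Genes on the same loci can share reads. For genes on opposite strands this depends on strand use in the quantification, which is not given in the sources used here. TET2-AS1, on the opposite strand of TET2, had a mean of 1.71 TPM as deposited with HA-TAZ and 2.84 in the controls. MIR1301, within DNMT3A on the same strand, had 3.83 and 0.822 TPM. DNMT3A itself had 11.2 and 11.4 TPM as deposited, with overlap. S1PR2, which overlaps DNMT1 on the same strand, had 9.72 and 10.0 TPM. RNU7-20P, within EZH2 on the opposite strand, had 3.57 and 15.0 TPM. The pseudogene RPS3AP37, within TET1 on the same strand, had 0.505 and 0.957 TPM, and both were lower with HA-TAZ. Their part in the values of the host genes was not tested.

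Among 87 tested genes that work with these enzymes or mark proliferation, 7 passed, 1 higher and 6 lower with HA-TAZ, beside 7.29% of all genes. None of the 9 tested partners of EZH1 and EZH2 in Polycomb repressive complex 2 passed. RBBP4, a histone-binding subunit, was at a scaled TPM of 199 ± 6.38 and 162 ± 12.3 (SD, n = 3; log2 fold change 0.30, adjusted p = 0.0537, limma). SUZ12, a core subunit, was at 76.2 ± 4.01 and 74.7 ± 3.71 (log2 fold change 0.03, adjusted p = 0.778, limma). The list had a median of 0.03, beside -0.03 over all tested genes, with 6 values above 0 and 3 below. Of 18 genes of Polycomb repressive complex 1, PHC3 fell by 0.38 (adjusted p = 0.0461, limma) while 16 of the 18 had values above 0 and the median was 0.18. Of 7 H3K27 demethylases and H3K36 methyltransferases, NSD2, which methylates H3K36 and is named WHSC1 in the table, fell by 0.29 (adjusted p = 0.0293, limma) and ASH1L, another such enzyme, fell by 0.21 (adjusted p = 0.0444, limma). All 7 values were below 0, some of them barely, with a median of -0.08. The medians of these 3 lists with TPM as deposited were -0.20, -0.08 and -0.37, so the signs of both Polycomb lists turned.

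On the side of DNA methylation, none of 7 tested partners of the methyltransferases passed. TRIM28 was at a scaled TPM of 216 ± 6.29 and 207 ± 14.3, and the deubiquitinase USP7 at 144 ± 8.15 and 151 ± 15.7 (SD, n = 3). The list had a median of -0.06, with 2 values above 0 and 5 below. Of 8 readers of methylated CpG, ZBTB38 fell by 0.26 (adjusted p = 0.0444, limma), and the median was 0.13. There were 6 readers above 0 and 2 below. Of 12 TET partners and repair genes, IDH2, whose product makes the TET cofactor 2-oxoglutarate in mitochondria, rose by 0.39 from 15.1 ± 1.04 to 20.1 ± 0.502 (SD, n = 3; adjusted p = 0.0331, limma). OGT, the O-GlcNAc transferase that TET2 and TET3 bind, fell by 0.31 (adjusted p = 0.0308, limma) and CXXC4, a binding partner of TET2, fell by 0.40 (adjusted p = 0.0425, limma). The list had a median of -0.01, with 6 values above 0 and 6 below. None of the 9 tested genes of the S-adenosylmethionine cycle, which makes the methyl donor, passed. The list median was 0.01, with 5 values above 0 and 4 below. MAT2A was at 216 ± 10.3 and 190 ± 10.1 and AHCY at 113 ± 4.40 and 94.8 ± 9.15 (SD, n = 3), with adjusted limma p-values of 0.108 and 0.0982. None of 18 proliferation genes passed. RRM2 was at 179 ± 7.33 and 158 ± 15.5 and PCNA at 144 ± 8.50 and 128 ± 7.06 (SD, n = 3). Their list median was 0.12, with 11 values above 0 and 7 below. With TPM as deposited the medians of these 5 lists, in the order given, were -0.33, -0.13, -0.30, -0.17 and -0.17, so those of the readers, the S-adenosylmethionine cycle and the proliferation genes turned sign; the median of all genes was then -0.27. The 7 calls among related genes were all lost when any 1 library was left out.

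**Figure D5:**
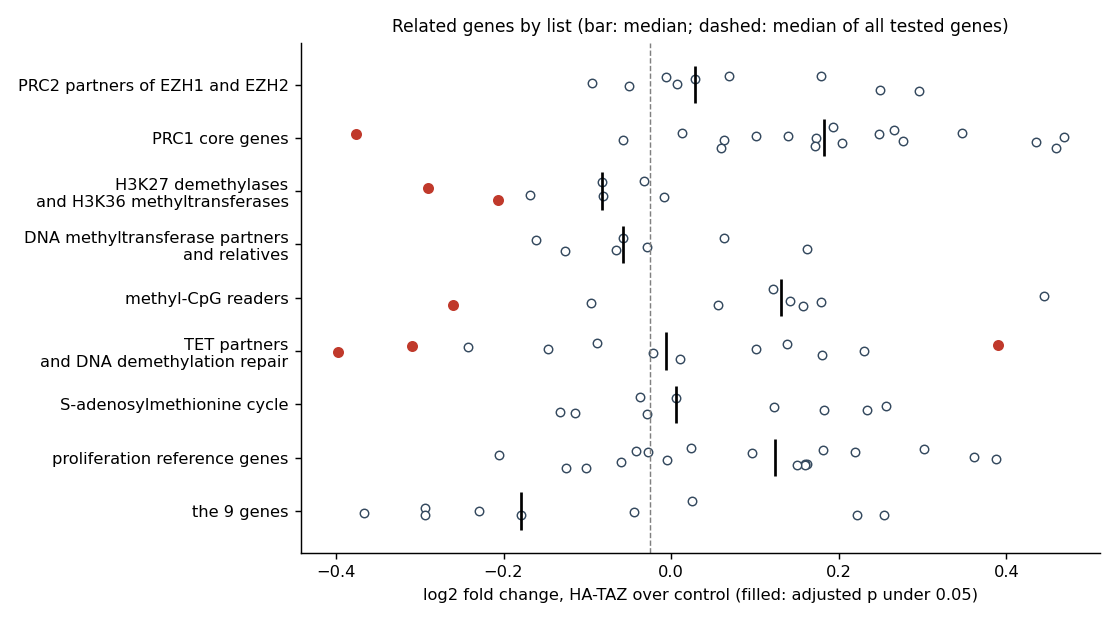
Log2 fold change (horizontal axis, HA-TAZ over control, scaled TPM) of each tested related gene by list and of the 9 genes in the bottom row; filled points passed at an adjusted p under 0.05, bars are list medians and the dashed line is the median of all tested genes. The 7 filled points are PHC3, NSD2, ASH1L, ZBTB38, OGT and CXXC4 to the left and IDH2 to the right.

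The genes whose values over the 6 libraries were closest to EZH2, by root mean square difference of centred log2(scaled TPM + 1), were KIAA0195 (0.0123), SIN3B (0.0138) and TMEM165 (0.0139). Those closest to DNMT1 were ALAD (0.0205), AKAP9 (0.0247) and ME2 (0.0257).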

How the data were processed

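The authors deposited TPM for 215170 transcripts in 6 libraries, and a table of their own comparison with p-values, q-values and effects, per the file headers. The headers give no log base, and reading the authors' effects as a natural log is an assumption. Read this way, the effect of the only TET1 transcript gives 0.743 of control, beside 0.728 for the ratio of mean scaled TPM. The submitters' processing notes name kallisto 0.46.0, sleuth 0.30.0 and the build GRCh37, with no roles given; the annotation release is not given in the sources used here. Transcripts were added up by gene ID as paired in the authors' table, and genes averaging at least 1 TPM were kept. TPM was divided by median-of-ratios factors over 21512 tested genes above 0 in all libraries, and log2(scaled TPM + 1) was tested with limma (trend, two-sided, Benjamini-Hochberg over all 22651 genes, threshold 0.05). The factors were first computed over all 33614 genes above 0, which called 1 of the 9 genes, and were restricted to tested genes after that result was seen, to match how the whole table had been processed earlier. The plan's literal wording is closer to the first choice. Ratios were compared by exact permutation tests. GENCODE 29, which is on GRCh38, gave transcript types by ID only. All 9 genes had RefSeq start windows.

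Named genes were the 9 genes, and of each related list those that passed (at most 4) or otherwise the 2 with the highest mean TPM; transcripts were up to 3 per gene by mean TPM plus any called. The gene set and the lists were chosen with earlier results of these data known. The limma procedure was tested on simulated data. The tests ran in limma 3.58.1 under R 4.3.3; tables and figures used pandas 2.3.3, numpy 2.4.6, matplotlib 3.10.9 and Python 3.11.15. Alternatives covered the scaling, pseudocount, filter, trend, transcripts summed and each library left out. With 3 libraries per group, precision was judged from their spread.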

Additional observations from a re-analysis of the deposited data

How the results depend on the processing

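No paired analysis was run, because no label names pairs of libraries or ties a control column to a numbered wild type sample. The main scaling, over tested genes, replaced the scaling over all genes above 0 after a call under the latter had been seen; the scaling over protein-coding genes and the sums over protein-coding transcripts were also chosen after seeing the data. Of the 9 genes, 0 were called with the main settings and with any library left out, and 5 with TPM as deposited. A pseudocount of 0.1 gave 1 call, and a mean TPM of at least 5 gave 3 of the 7 genes then tested. Scaling over protein-coding genes gave 3 and scaling over all genes above 0 gave 1. Protein-coding transcripts only gave 3 of the 8 genes then tested. Of all genes, 1652 were called (64.0% higher), against 3329 with TPM as deposited (7.84% higher), 691 without a filter, 756 without the trend, 3443 with protein-coding transcripts only and 118 to 470 with a library left out, where fewer samples were fitted. Scaling over protein-coding genes gave 1520 (43.4% higher), scaling over all genes above 0 gave 1922 and a pseudocount of 0.1 gave 1615. With a mean TPM of at least 5, 2240 of 12613 tested genes were called. Of the related genes, 7 were called, against 11 with TPM as deposited, 1 without a filter and 0 without the trend. Protein-coding transcripts only gave 28, a mean TPM of at least 5 gave 12 and any library left out gave 0. Signs turned for UHRF1 (-0.26), DNMT3A (-0.0237) and TET3 (-0.0551) with TPM as deposited, for UHRF1 (-0.0460) with scaling over protein-coding genes, for DNMT1 (0.00335), TET2 (0.0315), EZH1 (0.0867) and EZH2 (0.10) with protein-coding transcripts only, and for the log2 difference of the DNMT to TET ratio without control a (0.0563; from -0.165 to 0.0563 with a library left out). Apart from the constructions named, the cause was not tested. No member transcript was called under any alternative run. TET1, at 4.19 TPM, is the gene whose fold the pseudocount understates most. Unknown depth per library limits the low genes.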
